A study of Homo sapiens with 3 samples.

Results

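The desmosome genes were followed across 3 Affymetrix arrays of SAS cells, an established line from a human tongue carcinoma, here under the label GFP-SAS. The genes were 10 of the 18239 with a probe set of their own, chosen by name: the armadillo proteins JUP, PKP1, PKP2 and PKP3, the plakin DSP, the cadherins DSG2, DSG3, DSC2 and DSC3, and the tetraspan protein PERP. They were read by every probe set annotated to one of them alone, 27 of 45253. The groups were siNT, cells given a non-targeting small interfering RNA (siRNA; 1 library), and siAkt1, cells given an siRNA against AKT1 (siAkt1-22 and siAkt1-58, 1 library each). All 3 libraries were exposed to siRNA at 10 nM for 24 h, and no untreated library was analysed here. Values are log2 expression as deposited, and a difference is a library's log2 value minus that of siNT, so that a difference of 1 is 2-fold. The labels name no separate cultures, so the spread between the siAkt1 libraries may be technical, and it also holds whatever differs between the 2 siRNA sequences.

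Desmosomes are the spot-like junctions that rivet neighbouring epithelial cells together. Desmogleins and desmocollins, the desmosomal cadherins, span the membrane and bind those of the next cell, plakoglobin (JUP) and the plakophilins gather under the membrane on their tails, and desmoplakin (DSP) ties this plaque to the keratin filaments. PERP is a membrane protein of the junction and a target of p53 and p63. Squamous epithelia such as that of the tongue depend on desmosomes to resist mechanical stress, and the members are used in different mixtures in basal and upper layers and in simple epithelia.

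The promoters of the genes that stood above siNT with both siRNAs, JUP, DSP and DSG3, are shown first, with that of PERP, which its brighter probe sets placed above siNT with one siRNA and below it with the other. RefSeq windows of 300 bases (GRCh38.p14, 250 before to 50 after a start site) were at hand for 8 of the 10 genes, in 10 windows, and for neither PKP2 nor PKP3. Capitals mark the motifs searched on both strands: the E-box CAGGTG, a site type of SNAI and ZEB repressors, the AP-1 site TGANTCA, the GC box GGGCGG, the CCAAT box CCAAT and the TATA box TATAAA. No match of one motif overlapped a match of another.
JUP, first start site, chr17:41786662-41786961, minus strand: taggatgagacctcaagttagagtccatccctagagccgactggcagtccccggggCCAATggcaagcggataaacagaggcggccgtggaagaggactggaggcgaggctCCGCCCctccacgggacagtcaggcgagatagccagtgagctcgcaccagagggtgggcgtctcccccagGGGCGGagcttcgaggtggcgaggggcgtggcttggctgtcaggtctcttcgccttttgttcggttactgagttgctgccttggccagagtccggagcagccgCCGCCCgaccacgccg
JUP, second start site, chr17:41785927-41786226, minus strand: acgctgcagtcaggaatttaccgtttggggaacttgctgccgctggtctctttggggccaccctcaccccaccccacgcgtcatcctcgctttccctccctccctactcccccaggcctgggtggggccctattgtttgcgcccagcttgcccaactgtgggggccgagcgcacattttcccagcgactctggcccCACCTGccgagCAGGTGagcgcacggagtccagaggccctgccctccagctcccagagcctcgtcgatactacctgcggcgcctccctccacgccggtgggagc
DSP, chr6:7541421-7541720, plus strand: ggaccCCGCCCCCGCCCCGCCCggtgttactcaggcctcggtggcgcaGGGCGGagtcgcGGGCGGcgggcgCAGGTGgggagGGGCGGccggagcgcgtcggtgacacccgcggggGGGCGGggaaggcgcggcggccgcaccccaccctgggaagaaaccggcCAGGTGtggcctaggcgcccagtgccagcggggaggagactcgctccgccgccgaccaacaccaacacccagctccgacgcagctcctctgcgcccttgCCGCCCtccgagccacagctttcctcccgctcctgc
DSG3, chr18:31447491-31447790, plus strand: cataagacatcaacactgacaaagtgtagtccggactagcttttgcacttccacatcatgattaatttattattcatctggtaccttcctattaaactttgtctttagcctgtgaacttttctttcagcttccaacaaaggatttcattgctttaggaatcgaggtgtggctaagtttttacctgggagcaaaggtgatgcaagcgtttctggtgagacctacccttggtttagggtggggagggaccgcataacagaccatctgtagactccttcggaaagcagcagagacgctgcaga
PERP, chr6:138107370-138107669, minus strand: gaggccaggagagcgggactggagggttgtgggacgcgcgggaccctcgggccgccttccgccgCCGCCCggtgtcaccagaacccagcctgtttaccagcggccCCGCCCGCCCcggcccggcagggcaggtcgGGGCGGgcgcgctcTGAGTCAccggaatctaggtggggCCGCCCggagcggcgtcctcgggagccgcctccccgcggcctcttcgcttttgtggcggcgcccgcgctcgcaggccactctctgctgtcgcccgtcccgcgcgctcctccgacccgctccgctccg

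The windows differed in what they held. DSP held 8 GC boxes and 2 E-boxes, and PERP held 5 GC boxes and 1 AP-1 site. JUP held its 2 E-boxes in the window of the second start site, and its 3 GC boxes and its CCAAT box in that of the first. DSG3 held none of the motifs, and its window was 44% G and C against 77% for DSP and 77% for PERP. Over all 10 windows, E-boxes were in 4 (JUP, DSP, DSG2 and DSC2), where 20.6% of 35116 windows of the same length held one. GC boxes were in 7 windows (45% of all windows), the AP-1 site in 1 (7.71%), the CCAAT box in 2 (34.6%) and the TATA box in 0 (11.5%). A match is a description of the sequence, and no binding was measured in these cells.

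Of the 27 probe sets, 22 had a mean log2 value at or above the filter level of 3.63, the 30th percentile of the probe sets with 1 gene. The 5 below it were all 3 of DSC3 and 2 of the 3 of PKP1, so 9 of the 10 genes entered the comparisons. AKT1, the kinase both siRNAs target, read 6.75 with siNT, 3.67 with siAkt1-22 and 3.47 with siAkt1-58 in its brightest probe set, and thus was low in both libraries labelled as knockdown. Squamous and epithelial markers were high on the same arrays (KRT5 9.51, SFN 10.6, CDH1 9.51 and EPCAM 11.4 with siNT), except that the basal keratin KRT14 read 3.65. The squamous markers KRT6A, KRT17 and TP63 had no probe set of their own. All 6 fibroblast, 4 immune and 3 endothelial markers measured lay between 2.46 and 4.50 in every library. Skeletal muscle markers reached 5.54 (ACTA1 with siNT), and cardiac or melanocyte markers read at most 4.17. Sets of probes for RNA spiked in before labelling, 24 in all, had a median difference of -0.56 with siAkt1-22 and -0.01 with siAkt1-58, and ACTB, cytoplasmic actin, was -3.09 and 0.21. The 9 hybridisation controls, added after labelling, had medians of -0.04 and 0.08. The GAPDH control probe sets lay between -0.09 and -0.08 with siAkt1-22 and between 0.01 and 0.04 with siAkt1-58. How the lower spiked-in RNA and ACTB readings bear on the results for siAkt1-22 was not tested.

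No desmosome probe set was at least 2-fold from siNT in both siAkt1 libraries. The count was 0 of 22 higher, against 0.565% of all 31677 probe sets tested, and 0 of 22 lower, against 1.11%. At 1.5-fold the counts were again 0 higher (2.61% of all) and 0 lower (3.53% of all). By direction alone, 8 of 22 probe sets, of JUP, DSP, PKP3, DSG3 and PERP, lay above siNT in both libraries by any amount, where 28.3% of all did. None lay below siNT in both, where 21.9% of all did. By probe set, the most frequent pattern was a value below siNT with siAkt1-22 and above it with siAkt1-58. It was seen in 11 of 22 probe sets, of PKP2, DSG2 and DSC2, where 12.1% of all probe sets showed it. These 11 come from 3 genes, and probe sets of a gene are not independent. A dim DSC2 probe set among them passed the filter only through its value with siAkt1-58. By the brightest probe set of each gene, 3 of 9 genes showed this pattern, against 11.3% of all genes tested. More, 4 of 9, were above siNT with both siRNAs, against 29.7%. The reverse, above siNT with siAkt1-22 and below it with siAkt1-58, was seen in 2 probe sets, both of PERP (12.3% of all). The remaining probe set, of PKP1, was tied between siNT and siAkt1-22. The shares over all probe sets were not matched to the desmosome probe sets for brightness or for such ties.

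**Figure D1:**
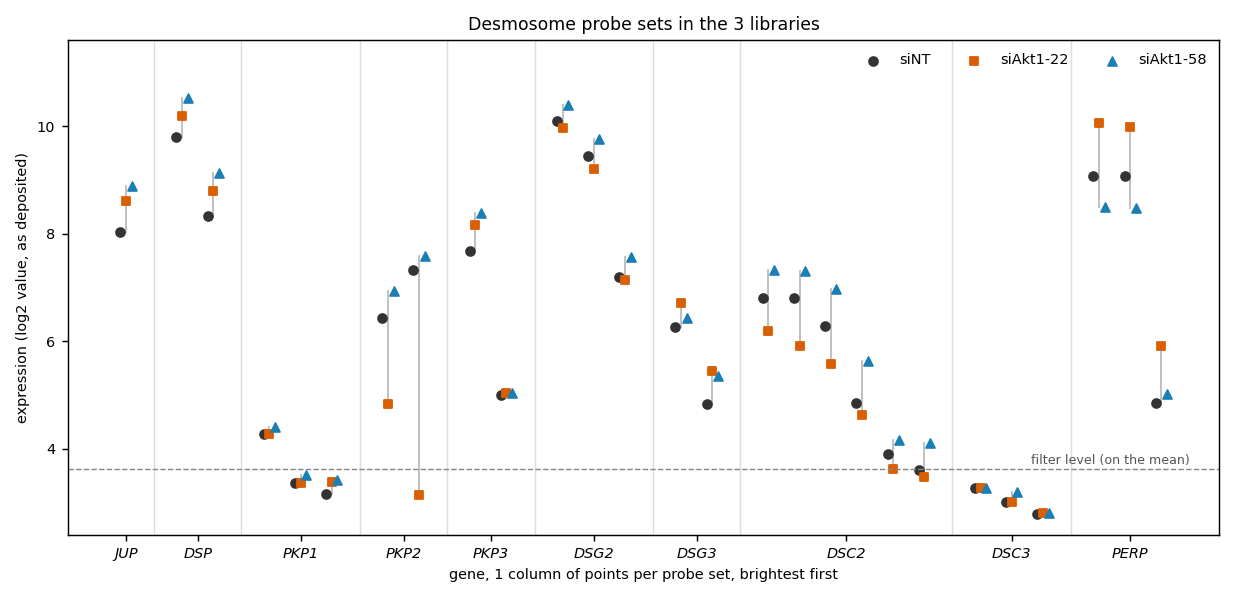
Log2 expression of the 27 desmosome probe sets, 1 column of points each, grouped by gene, in siNT (circles), siAkt1-22 (squares) and siAkt1-58 (triangles); points are offset sideways, grey lines join the extremes and the dashed line is the filter level of 3.63. JUP and DSP have both siAkt1 values above siNT, PKP2 and DSC2 are lowest with siAkt1-22, and DSC3 lies near the floor.

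With limma's moderated test of siAkt1 against siNT, 0 of the 22 desmosome probe sets passed an adjusted p of 0.05, and 0% of all probe sets did. Adjusted p ranged from 0.549 to 1 for the desmosome probe sets. At an unadjusted p under 0.05 there was 1, the dimmer probe set of DSG3, where 8.52% of all probe sets were under it. AKT1 itself did not pass (limma adjusted p = 0.518). The fit has 1 residual degree of freedom, and an exact permutation test of 2 libraries against 1 cannot go below p = 0.333. The differences that follow are therefore measurements on 3 libraries without support from a test.

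Among the genes of plaque proteins, JUP, DSP and PKP3 were above siNT in both libraries. PKP2, and PKP1 in its probe set above the filter, were not, and the cadherin DSG3 was, as given below. JUP, plakoglobin, the armadillo protein that binds the tails of the desmosomal cadherins, read 8.04 with siNT, 8.61 with siAkt1-22 and 8.89 with siAkt1-58. Both siAkt1 values lay above siNT, 1.49-fold and 1.81-fold, a mean difference of 0.72 ± 0.20 (SD, n = 2; limma adjusted p = 0.742). JUP has 1 probe set, so no other reading of it was at hand. DSP, desmoplakin, the plakin that anchors keratin filaments, read 9.81, 10.2 and 10.5 in its brightest probe set, in the order siNT, siAkt1-22 and siAkt1-58. Its other probe set read 8.33, 8.79 and 9.13. Both siAkt1 values lay above siNT in each, as they did in 28.3% of all probe sets tested. The mean differences were 0.55 ± 0.25 and 0.63 ± 0.24 (SD, n = 2), with limma adjusted p of 0.895 and 0.836.

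PKP3, a plakophilin found in most layers of stratified epithelium, had a brighter probe set at 7.68 with siNT, 8.16 with siAkt1-22 and 8.39 with siAkt1-58. Its mean difference was 0.60 ± 0.16 (SD, n = 2; limma adjusted p = 0.724). The dimmer PKP3 probe set was nearly flat at 5.01, 5.04 and 5.04, with both siAkt1 values equal, and averaging the probe sets gave differences of 0.26 and 0.37 in place of 0.49 and 0.71. JUP, DSP and the brighter PKP3 probe set thus had siNT lowest and siAkt1-58 highest. That order was not particular to plaque genes. The adherens junction genes CDH1 and CDH3 and the tight junction gene CLDN4 had it in their brightest probe sets. The share of all probe sets with this order was not computed.

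PKP2, the plakophilin of simple epithelia, heart and the basal cells of some stratified epithelia, gave the widest contrast among the members. Probe set 11726131_a_at read 7.32 with siNT, 3.13 with siAkt1-22 and 7.59 with siAkt1-58. Probe set 11726130_a_at read 6.43, 4.84 and 6.94. In both, siAkt1-22 alone was low and siAkt1-58 lay slightly above siNT. The value with siAkt1-22 was 18.3-fold below siNT in the first and 3.02-fold below it in the second, and the first was the 5th lowest difference with siAkt1-22 among the 31677 probe sets tested. The value of 3.13 lies below the filter level, where a dim probe set understates a fold. Because the siAkt1 libraries lay on opposite sides of siNT, the mean differences of -1.96 ± 3.15 and -0.55 ± 1.48 (SD, n = 2) were smaller than the spread. PKP1, the plakophilin of upper squamous layers, read 4.27, 4.27 and 4.40 in the 1 probe set above the filter and from 3.16 to 3.50 in the others, so that its differences of at most 0.25 come from dim signal.

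Among the cadherins, DSG2, the desmoglein found in all tissues with desmosomes, differed little. Its brightest probe set read 10.1 with siNT, 9.97 with siAkt1-22 and 10.4 with siAkt1-58. The 3 probe sets had differences from -0.25 to -0.06 with siAkt1-22 and from 0.29 to 0.36 with siAkt1-58. All 3 placed siNT between the siAkt1 libraries. DSG3, the desmoglein of the lower layers of stratified epithelium and an autoantigen in pemphigus vulgaris, read 6.26, 6.71 and 6.44 in its brighter probe set and 4.83, 5.45 and 5.35 in the dimmer one. Both siAkt1 values lay above siNT in each, by 0.32 ± 0.20 and 0.57 ± 0.07 (SD, n = 2; limma adjusted p = 0.984 and 0.549).

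DSC2, the widely expressed desmocollin, was the best sampled member with 6 probe sets, and all 6 had siAkt1-22 lowest and siAkt1-58 highest. The brightest read 6.80 with siNT, 6.18 with siAkt1-22 and 7.32 with siAkt1-58. The differences ran from -0.88 to -0.12 with siAkt1-22 and from 0.25 to 0.78 with siAkt1-58. The dimmest DSC2 probe set, at 3.59, 3.47 and 4.11, passed the filter only through its value with siAkt1-58. The next dimmest read 3.91, 3.62 and 4.15, so both lie close to the filter level of 3.63. DSC3, the desmocollin of basal squamous cells, read at most 3.27 in its 3 probe sets, with 1 of them equal in all libraries. Its values carry no difference that these arrays could read.

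The cadherin genes neighbour each other on chromosome 18 in the reference annotation, in the order DSC3, DSC2, DSC1, DSG1, DSG4, DSG3, DSG2. They did not share a pattern. DSC2 and DSG2 were below siNT with siAkt1-22 and above it with siAkt1-58, DSG3 between them was above it with both, and DSC3 was dim. The family genes outside the members were dim too: DSG1 read 3.83, DSG4 3.11 and DSC1 3.01 with siNT, each equal in all 3 libraries in its brightest probe set.

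PERP ran against the other members with siAkt1-58. Its brightest probe set read 9.08 with siNT, 10.1 with siAkt1-22 and 8.49 with siAkt1-58, and a probe set of nearly the same brightness read 9.08, 9.99 and 8.49. In both, siAkt1-22 was high and siAkt1-58 low, 1.97-fold and 1.88-fold above siNT with siAkt1-22 and 0.664 and 0.660 times siNT with siAkt1-58. The third probe set was far dimmer, at 4.84, 5.91 and 5.02, and was the only desmosome probe set at least 2-fold higher with siAkt1-22. It lay slightly above siNT with siAkt1-58, so the low value with that siRNA rests on the 2 bright probe sets. Their near-equal values leave it unknown whether they are independent readings, since probes of such sets can overlap.

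**Figure D2:**
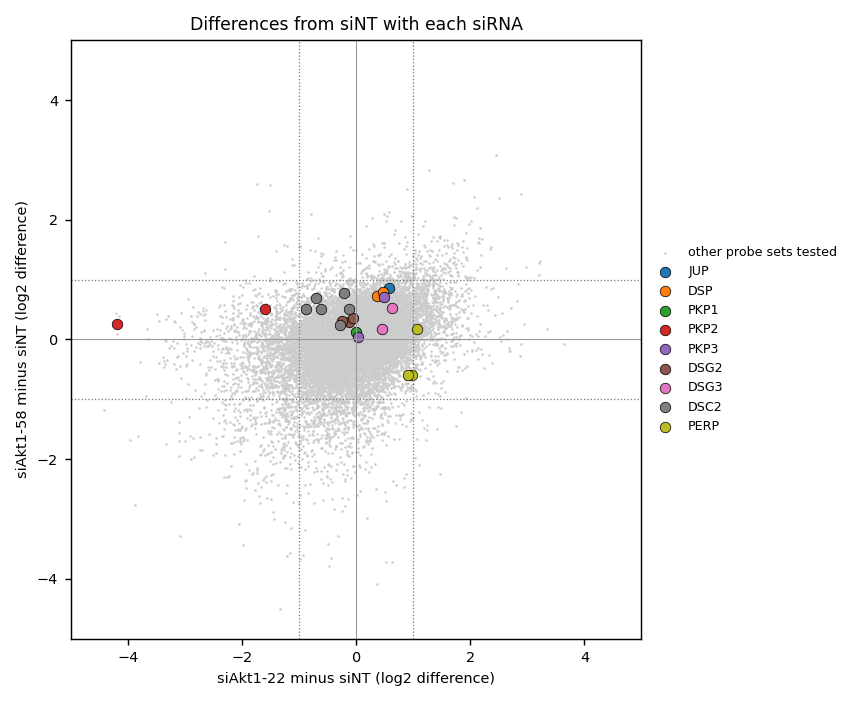
Difference from siNT (log2) with siAkt1-22 (horizontal axis) and siAkt1-58 (vertical axis) for the 31677 probe sets tested (grey) and the 22 desmosome probe sets among them (coloured by gene); dotted lines mark 2-fold. No desmosome point lies beyond the dotted lines in both directions, PKP2 lies far left at -4.19 and -1.60, and PERP lies to the right.

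Read singly, siAkt1-22 put 1 of 22 desmosome probe sets (PERP) at least 2-fold higher than siNT, against 3.52% of all, and 2 (both of PKP2) at least 2-fold lower, against 5.95%. With siAkt1-58 there were 0 higher, against 1.3%, and 0 lower, against 3.22%. The median difference of the 22 was -0.03 with siAkt1-22 and 0.43 with siAkt1-58, where the median of all probe sets was 0 with each. With the brightest probe set for each gene the medians over 9 genes were 0.37 and 0.50, so the median with siAkt1-22 depended on how the many DSC2 and DSG2 probe sets were counted. The median size of the difference, signs dropped, was 0.48 and 0.51, against 0.21 and 0.15 over all probe sets. That contrast was not tested, and the sets were not matched for brightness or for values tied with siNT.

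The siAkt1 libraries were then compared directly. Of the 22, 5 had siAkt1-22 at least 2-fold below siAkt1-58, 2 of PKP2 and 3 of DSC2, where 5.29% of all were. PERP had the 2 that were at least 2-fold higher with siAkt1-22, where 4.08% of all were. These counts compare 1 library with another and have no test. Another DSC2 probe set, at 4.63 with siAkt1-22 and 5.63 with siAkt1-58, missed the limit narrowly.

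Related genes were read by the brightest probe set of each, from lists chosen with earlier results known. PKP4, a relative of the plakophilins also found at adherens junctions, read 6.93 with siNT, 4.69 with siAkt1-22 and 6.76 with siAkt1-58. All 4 of its probe sets were lower with siAkt1-22, from -2.73 to -1.29, and within -0.17 to 0.03 with siAkt1-58, the same contrast between the siRNAs as in PKP2. Among plakins and cornified envelope genes, 2 of 9 above the filter were higher with both siRNAs and 1 was lower, against 29.7% and 20.3% of genes. PPL, periplakin, a plakin that links desmosomes and the envelope to keratin, read 7.80, 9.06 and 8.60, differences of 1.26 and 0.80. Its 4 probe sets were all above siNT with both siRNAs, from 0.63 to 1.45 and from 0.10 to 0.91. KAZN, kazrin, was 0.31 with each in its brightest probe set, while its other 2 above the filter gave 0 with each, and 0.15 and -0.08. PNN, pinin, a nuclear and desmosome-associated protein, was -0.79 and -0.42 with all 6 probe sets on that side. PLEC, plectin, a related cytolinker, was -0.65 and 0.34.

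Hemidesmosomes fasten basal cells to the matrix. Of 5 of their genes measured, 4 were below siNT with siAkt1-22 and above it with siAkt1-58 in their brightest probe set, where 11.3% of 14137 genes were, and LAMB3, a laminin chain, was the reverse (0.58 and -0.24). ITGA6, the alpha6 integrin, read 10.4, 8.37 and 11.1, and its 3 probe sets were between -2.32 and -2.05 with siAkt1-22. The keratins to which desmosomes attach included 4 of 9 with the same split. KRT5 was -0.35 and 0.52, KRT15 -0.56 and 0.79 and KRT19 -0.24 and 0.67, whereas KRT8, a simple-epithelial keratin, was 0.30 and -0.38. KRT14 was the 1 keratin above siNT with both siRNAs, by 0.01 with each, and KRT4 the 1 below, at -0.01 with each. ITGA6, CD151, PLEC, LAMB3, KRT5, KRT15, KRT19 and KRT8 were named after their values were seen. CD151, a tetraspanin, was counted by -0.31 and 0.03, and 2 of its 5 probe sets were below siNT with siAkt1-58 too. DST, dystonin, showed the split in its brightest probe set only (-0.59 and 0.70), while 4 dimmer ones were above siNT with both.

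Of 9 adherens junction genes, 5 were above siNT with both siRNAs and 1 below, against 29.7% and 20.3% of genes. E-cadherin (CDH1) was 0.39 and 0.55, P-cadherin (CDH3) 0.35 and 0.62 and vinculin (VCL) 0.59 and 0.19. CTNND1, p120-catenin, named after its values were seen, was counted by 0.06 and 0.36 in its brightest probe set, while another gave -1.38 and 0.76. The 1 below was CTNNB1, beta-catenin, the closest relative of plakoglobin. It read 11.5 with siNT, 9.28 with siAkt1-22 and 11.3 with siAkt1-58, and its 8 probe sets lay between -3.36 and -2.19 with siAkt1-22 and between -0.49 and -0.15 with siAkt1-58. JUP and CTNNB1, which can occupy the same place on classical cadherins, thus stood on opposite sides of siNT in both libraries. Of 7 tight junction genes above the filter, 4 were above siNT with both siRNAs and 1 below, against 29.7% and 20.3% of genes. Those above were CLDN7 (0.78 and 0.48), CGN (0.59 and 0.24), CLDN4 (0.20 and 0.48) and CLDN1 (0.47 and 0.10). CLDN1, named after its values were seen, had another probe set at 0.66 and -0.27. MARVELD2, tricellulin, was the 1 below, at -2.82 and -0.84.

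**Figure D3:**
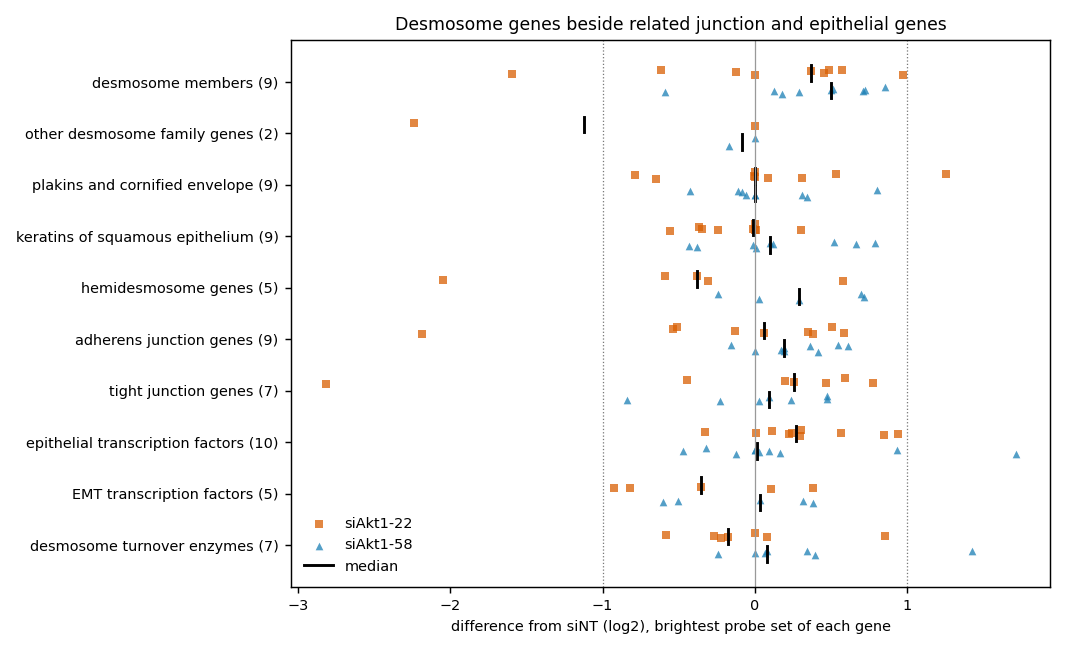
Difference from siNT (log2) for the brightest probe set of each gene above the filter, by list (number of genes in brackets), with siAkt1-22 (squares) and siAkt1-58 (triangles); black bars are medians and dotted lines mark 2-fold. The medians of the 9 desmosome genes lie at 0.37 and 0.50, and single genes far to the left with siAkt1-22 appear in several lists (PKP2, PKP4, ITGA6, CTNNB1 and MARVELD2).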

How the data were processed

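Gene expression was measured on 3 arrays from 10 ng of total RNA each, labelled with a 3' in vitro transcription kit, per the labels' protocols. The deposited values are log2 expression per probe set. The submitters' processing notes give RMA as the method, with no version, and the log2 scale was inferred from the range of the values. RMA equalises arrays and often returns exactly tied values. Of 49386 probe sets, 45253 carried 1 gene, with symbols updated through Entrez identifiers where possible (45172). The 31677 probe sets whose mean reached the 30th percentile (log2 3.63) were tested. Calls were by size, 2-fold in each siAkt1 library, and by limma's moderated test (version 3.58.1, R 4.3.3; two-sided, threshold 0.05, p adjusted over all probe sets tested by Benjamini-Hochberg); siNT, with 1 library, is assumed to vary like siAkt1. The limma fit and the 2-fold size calls were tried on simulated data, with equal noise in all 3 libraries and the same change in both siAkt1 libraries. The simulated noise was also equal across probe sets, so that trial cannot show how either call performs on these arrays. Every member and its probe sets are described; of each related list, up to 3 genes higher and 3 lower with both siRNAs were named. The members and lists were chosen with earlier results of these data known, and the counts by direction and the promoter motifs were added after seeing the data. Alternatives covered 1 value per gene, centring, quantile normalization, filters, the fold limit, eBayes settings and leaving out a siAkt1 library. No protein sequences and no genome were used here. Precision is limited by having 3 arrays.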

Additional observations from a re-analysis of the deposited data

How the results depend on the processing

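The counts of desmosome probe sets at least 2-fold from siNT in both siAkt1 libraries (0 higher and 0 lower) and past limma (0) were unchanged with the brightest or averaged probe sets of a gene, quantile normalization, median centring, a stricter filter or none and, for the first, a limit of 1.5-fold, and for limma, with a trend or robust eBayes (members' lowest adjusted p from 0.315 to 0.798 over these settings). Leaving out a siAkt1 library gave 0 to 1 higher and 0 to 2 lower; without siAkt1-58 the calls were those of PERP and PKP2 with siAkt1-22, and limma had no residual degree of freedom left. The median difference with siAkt1-22 was -0.03 and ran from -0.03 to 0.37 over all settings. It was 0.37 with the brightest probe set per gene, 0.26 with averaged ones, 0.04 with the stricter filter and 0 with no filter. With siAkt1-58 the median ran from 0.29 to 0.50 over all settings. Counts between the siRNAs were 1 higher and 2 lower with the brightest probe set and 1 and 2 with averaged ones, because fewer features were then tested. Centring and quantile normalization kept the sign of the differences of the 9 member genes above the filter except PKP1 with siAkt1-22 (0 as reported, 0.01 and -0.02). No paired analysis was possible because siNT has a single library. Dim signal limits DSC3 and PKP1.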

Other observations

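Transcription factors of epithelial and mesenchymal state were read on the same arrays. Of 10 epithelial factors, 4 were above siNT with both siRNAs and 0 below, against 29.7% and 20.3% of genes. ZNF750, a factor of late epidermal differentiation, read 3.85 with siNT, 4.69 with siAkt1-22 and 5.56 with siAkt1-58, and all 4 of its probe sets were above siNT with both, from 0.20 to 1.27 and from 0.86 to 2.83. Dim signal with siNT limits these differences. The widest, 1.27 and 2.83, come from a probe set at 2.29, 3.56 and 5.12, which passed the filter only through its value with siAkt1-58. GRHL3, a grainyhead factor of barrier formation, was 0.30 and 0.94. The other 2 were near siNT: ESRP1, named after its value was seen, was 0.01 and 0.03, with -0.03 and 0.06 in its other probe set, and KLF5 was 0.12 and 0.09, with both other probe sets below siNT with siAkt1-58. KLF4, named after its value was seen, was 0.94 and -0.32. It was 1 of 3 of these factors above siNT with siAkt1-22 and below it with siAkt1-58, where 12.6% of genes were. Of 5 EMT factors above the filter, SNAI2, a repressor that binds E-boxes, was -0.82 and -0.60 in its 1 probe set and ZEB1, near the floor, -0.35 and -0.50. TWIST1, named after its value was seen, was -0.92 and 0.32. TWIST2 was 0.38 with each in its brightest probe set and -0.03 and 0.07 in the other, and SNAI1 was 0.11 and 0.04. No relation between these factors and the desmosome genes was tested.

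Of 7 genes for enzymes that act on desmosomal proteins, 2 were above siNT with both siRNAs and 1 below, against 29.7% and 20.3% of genes. The protease KLK7 was 0.86 and 0.40. The sheddase ADAM17 was -0.17 and -0.24 in its brightest probe set, while 2 dimmer ones gave 0 with each, and 0.05 and 0. ADAM10 was 0.08 with each, while another of its probe sets gave -0.67 and 0.49. PRKCA, a kinase that weakens desmosomal adhesion, was -0.58 with siAkt1-22 and 1.43 with siAkt1-58, and was named after its value was seen; a dimmer probe set was -0.83 and 0.12.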
